A study of Homo sapiens with 12 samples.

Results

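The HIF, ARNT and AHR axis was followed through 9 of the 58735 genes measured by RNA sequencing: HIF1A, EPAS1, ARNT, ARNT2, AHR, AHRR, CYP1A1, CYP1B1 and TIPARP. The genes were chosen by values of these data, namely that ARNT2 was lower and CYP1A1 was higher in the 77-39 treated libraries labelled COV434. Values from that contrast are therefore given here as a description, without a test, for all 9 genes. KGN and COV434 are human lines that the labels describe as granulosa cell tumor (GCT) cells of wild-type genotype, and 77-39 is a compound that the study describes as a selective inhibitor of the mitochondrial deacetylase SIRT3. RNA was sequenced in 12 libraries, 3 each of untreated KGN, KGN with 77-39, untreated COV434 and COV434 with 77-39. The treated cells had received 77-39 for 72 h at a dose whose number is 10 and whose unit in the labels could be read as µM or as µg/mL. The same dose text stands on the untreated libraries, which were taken as untreated from their titles. The labels give no oxygen level for the cultures, and do not say whether the 3 libraries of a group came from separate cultures, so that p-values measure the spread between these libraries only.

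The 9 genes belong to a family of paired transcription factors and to the genes that report on them. HIF1A and EPAS1 encode HIF-1α and HIF-2α, which are hydroxylated and destroyed when oxygen is present, and which switch on genes for glycolysis, pH control and oxygen supply when it is scarce. AHR encodes the aryl hydrocarbon receptor, which is held in the cytosol by a chaperone complex until a ligand binds. HIF-α subunits and AHR bind DNA only after pairing with ARNT or its paralog ARNT2, so that both branches draw on a common partner. CYP1A1 and CYP1B1 (enzymes that oxidize aromatic compounds), TIPARP (an ADP-ribosyltransferase that acts on AHR) and AHRR (a repressor that competes with AHR) are known targets of AHR, and the last of these feed back on the receptor. HIF-α and AHR proteins are controlled largely after translation, which RNA levels do not show.

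The libraries held 15547851 to 18280415 reads on genes. Markers went against the labels of the lines, so that the libraries are called by their labels throughout. FOXL2, the transcription factor of granulosa cells that adult-type GCT such as KGN carries in mutated form, had at most 1 read in any of the 6 libraries labelled KGN, against 12.4 ± 0.786 FPKM (SD, n = 3) in untreated libraries labelled COV434. SMARCA2, a chromatin remodelling ATPase that COV434 is known to lack together with SMARCA4, stood at 0.00773 ± 0.00127 FPKM in untreated KGN and at 5.65 ± 0.717 FPKM in untreated COV434 by label. SMARCA4 was at 2.58 ± 0.021 and 9.22 ± 3.13 FPKM in the same groups. The summed level of 9 granulosa cell markers was 5.35 to 6.22 FPKM in the libraries labelled KGN and 21.4 to 26.3 FPKM in those labelled COV434. In each group 5 or 6 of the 9 were under 0.1 FPKM in all 3 libraries, with the receptor FSHR at 0 in all 12, so that few genes make up the sums. AMH was at 4.55 and 8.24 FPKM and INHA at 1.06 and 4.75 FPKM in untreated KGN and COV434. INHBA (0.0742 and 0.00485 FPKM) and GATA4 (0.0082 and 0.00453 FPKM) went the other way, near 0. Of 8 markers of leukocytes, endothelium, epithelium and retina (the tissue that the extraction text names), 6 were under 0.1 FPKM in each group, but not the same 6. The retinal marker NRL had means of 0.289 to 0.654 FPKM in the 4 groups. The leukocyte marker PTPRC was at 0.226 and 0.348 FPKM in untreated and treated KGN, and the endothelial marker PECAM1 at 0.144 FPKM in untreated COV434. The sums of the 8 markers were 0.548 to 0.869 FPKM. SIRT3 RNA did not pass the test in KGN (log2 fold change −0.07, adjusted p = 0.475 in limma) or in COV434 (0.15, adjusted p = 0.929). The values are FPKM, reads on a gene scaled for gene length and for library size, so that levels can be compared between genes.

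Reference sequence before the transcription starts of these genes was searched for the short cores that the 2 kinds of heterodimer recognize. For the search, GCGTG was taken as the core of AHR with ARNT, and ACGTG as a core of HIF-α with ARNT. A GCGTG is not read here as excluding HIF-α. The 2 cores were searched on both strands in the 250 bases before each RefSeq start (GRCh38.p14). Of the 9 genes, 7 had an entry there and ARNT2 and CYP1B1 had none. GCGTG and ACGTG do not overlap each other in the sites shown, but in the AHR site ACGTG overlaps itself on the 2 strands. GCGTG was found in 32.2% and ACGTG in 18.5% of all 35116 such windows, and both in 7.52%, so that a match is a description and not a binding site. The sites below are shown because CYP1A1, AHRR and TIPARP are the AHR targets described here and AHR is their receptor. A further GCGTG at the second AHRR start, at bases −247 to −243 from that start, is not shown. Capitals mark the cores, which read CACGC or CACGT where they lie on the other strand.
CYP1A1, chr15:74725568-74725597, minus strand: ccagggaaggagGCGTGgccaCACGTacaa
AHRR, first start, chr5:321672-321701, plus strand: ggcgggcggctcGCGTGccggggtggggca
AHRR, second start, chr5:322556-322585, plus strand: gcagaagggtggGCGTGtgcgcgcgttctc
TIPARP, first start, chr3:156674370-156674399, plus strand: cgcgagaaaggaCACGCcccctcgcgggag
TIPARP, first start, chr3:156674436-156674465, plus strand: cgaacgaacgcgCACGCgcgcgcagggggc
AHR, chr7:17298475-17298504, plus strand: gtcctacgtcatCACGTGccgggatgaggg

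CYP1A1 was the only one of the 7 genes whose window held both cores, with GCGTG at bases −57 to −53 and ACGTG, on the opposite strand, at bases −48 to −44 counted from the start. In GENCODE 29, 82 bases of that window lie inside annotated exons of CYP1A1, while none of the AHRR window at the first start and 248 of the 250 bases of the TIPARP window do. The window of AHR held no GCGTG and 1 palindrome in which ACGTG reads on both strands. HIF1A and EPAS1 held 1 GCGTG each at their first start, and the window of ARNT held neither core.

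The untreated libraries of the 2 labels differed in most of the axis before any treatment. HIF1A, EPAS1, AHR, AHRR and TIPARP were higher in the libraries labelled COV434, and ARNT was at nearly the same level in both. In this comparison 69.0% of the 13098 genes tested had an adjusted p-value under 0.05 (limma on log2(FPKM + 1), after genes whose mean was under 1 FPKM had been left out), so that a difference was the usual finding for a gene. Of the 9 genes, 7 passed the filter on low values, and EPAS1, AHR and AHRR passed it only through the libraries labelled COV434, so that their differences are given without a test. Changes of cell composition and of RNA per cell cannot be told apart in such bulk libraries.

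Among the oxygen-regulated subunits, HIF1A (ENSG00000100644, chromosome 14, 61695513 to 61748259) was measured at 21.5, 22.4 and 23.2 FPKM in untreated KGN and at 50.7, 81.7 and 68.2 FPKM in untreated COV434. All COV434 libraries lay above all KGN libraries, 2.99-fold in the means, and the log2 difference was 1.51 (SE 0.17, adjusted p = 0.000271). EPAS1 (ENSG00000116016, chromosome 2, 46293667 to 46386703) was close to background in untreated KGN, with 0.0960, 0.104 and 0.195 FPKM from 13, 13 and 28 reads. The untreated COV434 libraries held 40.5, 25.4 and 25.6 FPKM, 232-fold more in the means, with a log2(FPKM + 1) difference of 4.77. EPAS1 made up 0.580% ± 0.219 (SD, n = 3) of the HIF1A and EPAS1 total in untreated KGN and 31.8% ± 11.1 in untreated COV434. HIF1A was the highest of the 9 genes in all 4 groups, in treated COV434 with values that overlapped those of AHRR.

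The partner genes behaved differently from each other. ARNT (ENSG00000143437, chromosome 1, 150809705 to 150876768) was at 11.2 ± 0.244 FPKM in untreated KGN and 10.8 ± 1.42 FPKM in untreated COV434, with overlapping libraries and a log2 difference of −0.05 (SE 0.11, adjusted p = 0.699). The sign of this difference turned to 0.05 without COV434 untreated library 2, and the difference was −0.26 with voom on the recovered reads (adjusted p = 0.0707). The adjusted p passed 0.05 in 0 of 13 alternative settings, so that no direction is read from the difference. ARNT2 (ENSG00000172379, chromosome 15, 80404350 to 80597937), the paralog best known from neurons, was 2.78-fold higher in untreated COV434, at 6.50 ± 1.36 against 2.34 ± 0.103 FPKM. This value is given without a test, because the COV434 levels of ARNT2 had chosen the genes. The transcripts of ARNT and ARNT2 share none of their 31-base stretches, nor do those of HIF1A and EPAS1 or of AHR and AHRR.

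AHR and its repressor AHRR were low in the libraries labelled KGN. AHR (ENSG00000106546, chromosome 7, 16916359 to 17346152) had 2, 1 and 9 reads in untreated KGN, of which the first 2 are within the 3 reads that a count of 0 allows. Untreated COV434 held 4.91, 6.11 and 5.37 FPKM from 658, 839 and 726 reads, and the log2(FPKM + 1) difference was 2.65. An annotated transcript on the same strand, AC019117.2, shares 29.4% of the exonic bases of AHR, and how reads on shared bases were counted is not given in the sources used here. AHRR (ENSG00000063438, chromosome 5, 304176 to 438291) was at 0.222 ± 0.0256 FPKM in untreated KGN and 25.2 ± 7.83 FPKM in untreated COV434, a log2(FPKM + 1) difference of 4.38. The repressor stood above its receptor in every library of both labels, per length of gene, although AHR had few reads in KGN.

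The AHR targets did not follow a common order. TIPARP (ENSG00000163659, chromosome 3, 156673235 to 156706770) was 9.06-fold higher in untreated COV434, at 10.5 ± 0.552 against 1.16 ± 0.0483 FPKM, with a log2 difference of 2.41 (SE 0.08, adjusted p = 4.49e-07). CYP1B1 (ENSG00000138061, chromosome 2, 38066973 to 38109902) had 0, 1 and 1 reads in untreated KGN, where 3 reads would amount to 0.0253 to 0.0292 FPKM, and 1.56, 1.17 and 1.47 FPKM in untreated COV434. An antisense gene, CYP1B1-AS1, shares 11.3% of its exonic bases. CYP1A1 (ENSG00000140465, chromosome 15, 74719542 to 74725610) was the one gene of the 9 whose untreated COV434 libraries all lay below the untreated KGN libraries, at 0.683 ± 0.0667 against 0.870 ± 0.148 FPKM, given without a test. It was thus the lowest of the 9 genes in untreated COV434 and the fifth in untreated KGN.

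**Figure D1:**
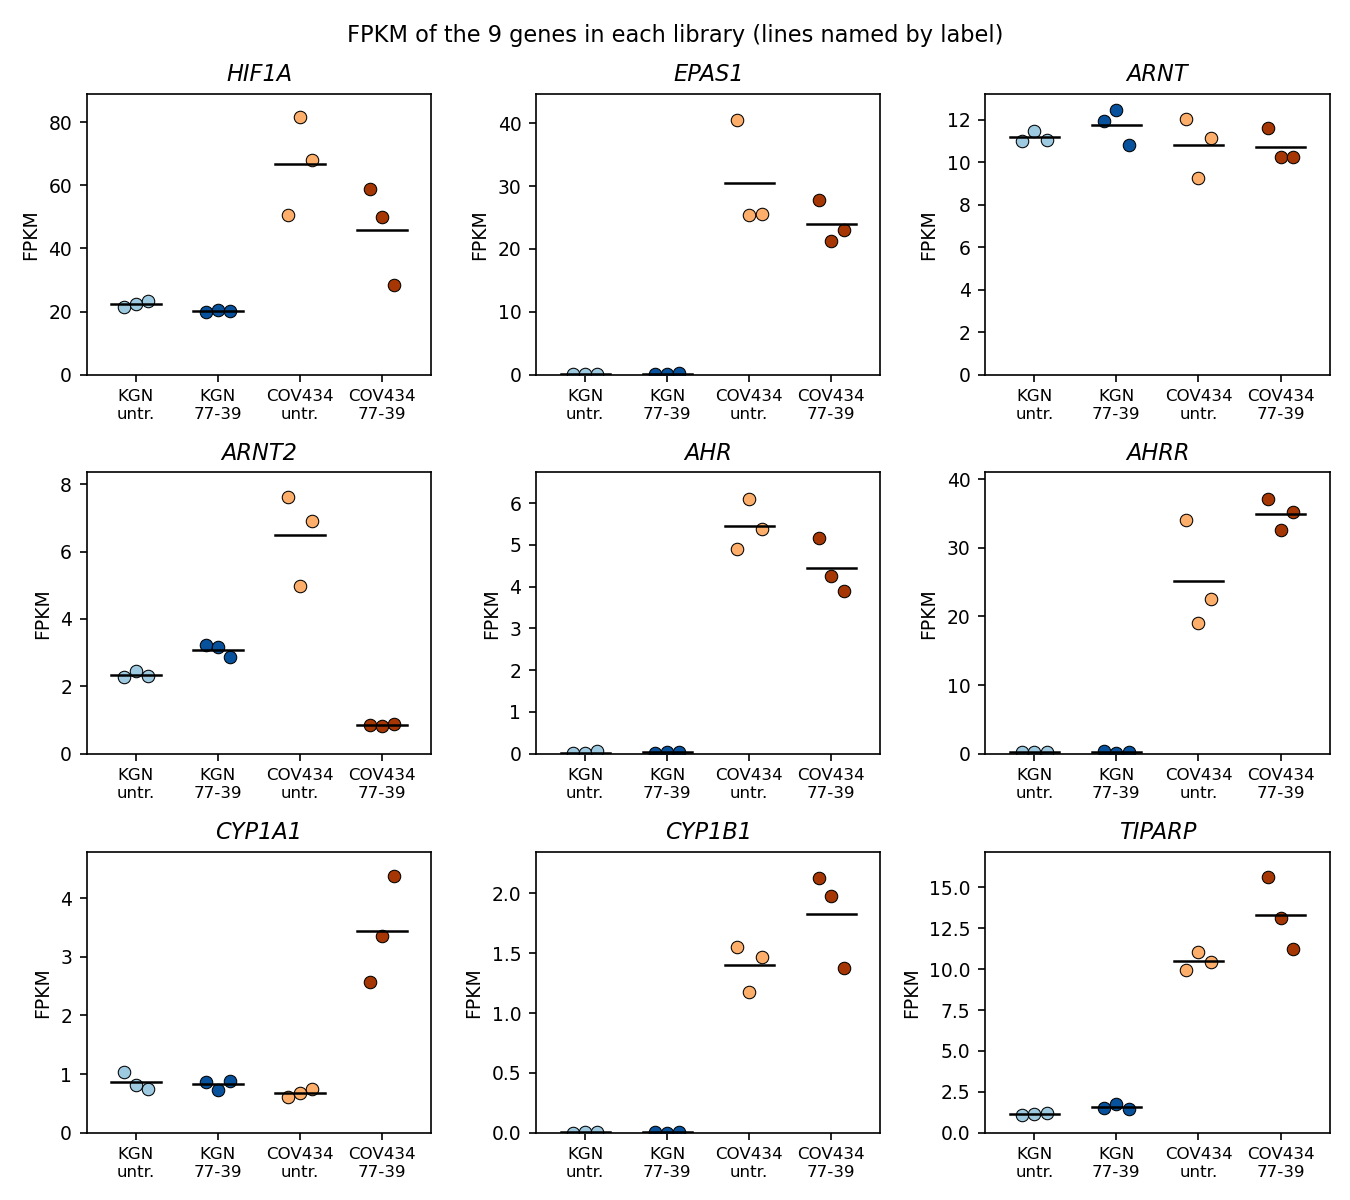
FPKM of the 9 genes (y axis, linear, from 0) in each of the 12 libraries (points), by group on the x axis, with a bar at the mean of 3 libraries. EPAS1, AHR, AHRR and CYP1B1 lie near 0 in the libraries labelled KGN, ARNT lies between 9.27 and 12.5 FPKM in all 12, and ARNT2 and CYP1A1 show the values by which the genes were chosen in COV434.

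Treatment with 77-39 in the libraries labelled KGN is the contrast that the choice of genes did not use. ARNT2 rose by 1.32-fold, and HIF1A, TIPARP and ARNT did not pass the adjusted test. The other 5 genes were under the filter of 1 FPKM and were not tested. Across all 12671 genes tested in KGN, 34.0% had an adjusted p-value under 0.05 (17.6% up and 16.4% down), so that 1 called gene of the 4 tested is close to the background.

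ARNT2 measured 2.26, 2.46 and 2.30 FPKM in untreated KGN and 3.23, 3.16 and 2.87 FPKM with 77-39. All treated libraries lay above all untreated ones, and the log2 fold change was 0.29 (SE 0.06, adjusted p = 0.0144, limma). Over the 13 alternative settings the adjusted p ranged from 0.00181 to 0.178. It passed 0.05 in 10 of them, but was 0.0532 without KGN 77-39 library 1, 0.0557 without KGN 77-39 library 2 and 0.178 with all 12 libraries in 1 fit. With ARNT at 11.97, 12.45 and 10.8 FPKM in the treated libraries, the share of ARNT2 in the ARNT and ARNT2 total went from 17.3% ± 0.316 to 20.8% ± 0.510, without overlap.

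HIF1A was at 20.0, 20.6 and 20.2 FPKM in treated KGN, below all 3 untreated libraries, with a log2 fold change of −0.14 (SE 0.04, unadjusted p = 0.018, adjusted p = 0.0521, limma). The adjusted p passed 0.05 in 2 of 13 alternative settings, with 0.0253 under median-ratio scaling and 0.0308 without KGN untreated library 1. TIPARP was at 1.11, 1.16 and 1.21 FPKM without and at 1.54, 1.77 and 1.48 FPKM with 77-39, again without overlap, with a log2 fold change of 0.26 (SE 0.09, unadjusted p = 0.0182, adjusted p = 0.0524, limma). Its adjusted p passed 0.05 in 1 of 13 alternative settings, 0.0145 with voom on the recovered reads. ARNT libraries overlapped, with a log2 fold change of 0.06 (SE 0.06, adjusted p = 0.431, limma). Of the 4 genes, 2 had all treated libraries above and 1 had all below the untreated ones, where 49.7% of all genes tested did not overlap.

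The genes under the filter gave few reads in KGN. CYP1A1 measured 1.04, 0.818 and 0.754 FPKM without and 0.866, 0.727 and 0.888 FPKM with 77-39 in KGN, from 165 and 149 reads per group, and the libraries overlapped. AHRR went from 0.222 ± 0.0256 to 0.270 ± 0.115 FPKM and EPAS1 from 0.132 ± 0.0548 to 0.158 ± 0.0412 FPKM, both with overlap. AHR gave 12 reads over the 3 untreated and 13 over the 3 treated libraries, and CYP1B1 gave 2 and 2. Whether 77-39 altered AHR or CYP1B1 in KGN was not detectable at this depth.

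In COV434, ARNT2 and CYP1A1 chose the genes, and their values are given for description. ARNT2 was at 7.61, 4.99 and 6.90 FPKM in the untreated libraries (976, 656 and 893 reads) and at 0.846, 0.826 and 0.889 FPKM with 77-39 (98, 105 and 123 reads). The untreated mean was 7.61 times the treated mean, the log2(FPKM + 1) difference was −2.00, and the treated libraries had the smallest SD in FPKM of the 4 groups. ARNT2 went from the sixth to the lowest of the 9 genes by mean FPKM.

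ARNT, the other partner, was at 12.05, 9.27 and 11.2 FPKM in untreated COV434 and at 11.6, 10.3 and 10.2 FPKM with 77-39, and the groups overlapped. The share of ARNT2 in the ARNT and ARNT2 total was 37.3% ± 2.03 (SD, n = 3) in untreated and 7.40% ± 0.603 in treated COV434. The 2 partners together thus held less FPKM in every treated than in every untreated COV434 library, with the difference in ARNT2. With 77-39, ARNT2 was thus higher in KGN and lower in COV434 by label. The log2 differences of the 2 lines were 2.29 apart, and the difference was not tested because the COV434 values had chosen the gene.

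**Figure D2:**
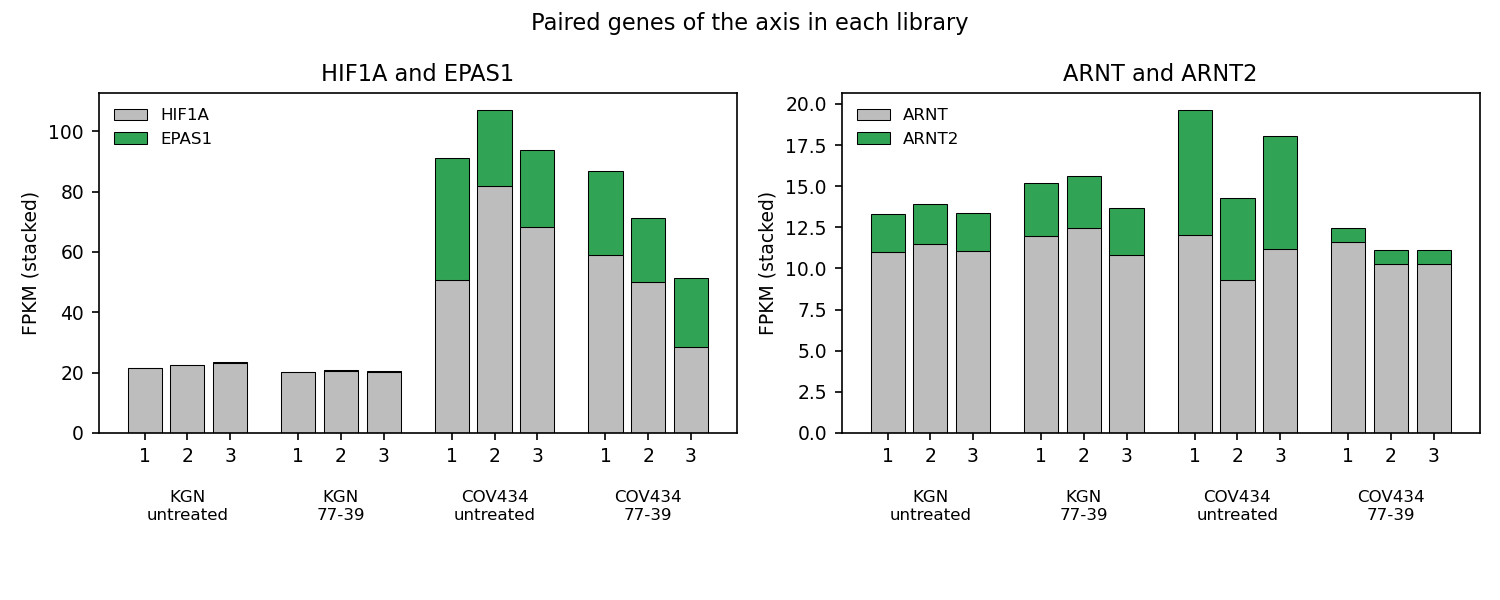
Stacked FPKM (y axis, from 0) of HIF1A with EPAS1 (left) and of ARNT with ARNT2 (right) in each of the 12 libraries, numbered within their groups on the x axis. EPAS1 is hardly visible in the libraries labelled KGN, and the ARNT2 segment makes up 34.97% to 38.7% of the bar in untreated COV434 and 6.78% to 7.98% with 77-39.

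CYP1A1 was at 0.615, 0.685 and 0.748 FPKM in untreated COV434 (35, 40 and 43 reads) and at 2.57, 3.35 and 4.38 FPKM with 77-39 (132, 189 and 269 reads). Every treated library lay above every untreated one, by 5.03-fold in the means and 1.38 in log2(FPKM + 1). CYP1A1 shared only 28 of its 3590 31-base stretches with its neighbor CYP1A2, which was listed at 0 in untreated COV434 and at 0.0298 FPKM with 77-39. No other annotated gene shares its exonic bases.

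The other AHR genes differed less between the groups than CYP1A1 did in COV434. TIPARP was at 9.98, 11.1 and 10.5 FPKM without and at 15.7, 13.1 and 11.2 FPKM with 77-39, which do not overlap, with treated library 3 just above the highest untreated one. AHRR was at 34.01, 19.0 and 22.5 FPKM without and at 37.2, 32.6 and 35.2 FPKM with 77-39, where untreated library 1 overlapped the treated group. CYP1B1 went from 1.40 ± 0.200 to 1.83 ± 0.399 FPKM and overlapped, with treated library 3 inside the untreated range. AHR itself was at 5.17, 4.25 and 3.90 FPKM with 77-39 against 4.91, 6.11 and 5.37 FPKM without, a log2(FPKM + 1) difference of −0.25 with overlap.

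Both oxygen-regulated subunits had lower means with 77-39 in COV434, with wide spread. HIF1A was at 59.0, 50.1 and 28.4 FPKM with 77-39 against 50.7, 81.7 and 68.2 FPKM without, where untreated library 1 was below treated library 1, and treated library 3 was the lowest of all 6. EPAS1 was at 27.8, 21.2 and 22.9 FPKM with and 40.5, 25.4 and 25.6 FPKM without 77-39. Its share of the HIF1A and EPAS1 total was 31.8% ± 11.1 without and 35.5% ± 8.04 with 77-39 and did not separate the groups. Over the 9 genes, 2 had all treated COV434 libraries above (CYP1A1 and TIPARP) and 1 had all below (ARNT2), against 14.4% of the 12060 genes tested that did not overlap, a comparison from which nothing is read because the contrast chose the genes.

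The libraries labelled COV434 were uneven in ways that touch these values. Same-numbered untreated and treated libraries deviated together from their group means. Untreated library 1 had the lowest HIF1A and the highest EPAS1, AHRR and ARNT2 of its group, and treated library 1 had the highest share of reads from mitochondrial genes, 13.5%, against 7.71% to 9.63% in the other 5. The part of these shares in the results was not tested. Between libraries with the same number, AHRR was higher and EPAS1 lower with 77-39 in 3 of 3 pairs, whereas HIF1A and AHR were lower and CYP1B1 was higher in 2 of 3.

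**Figure D3:**
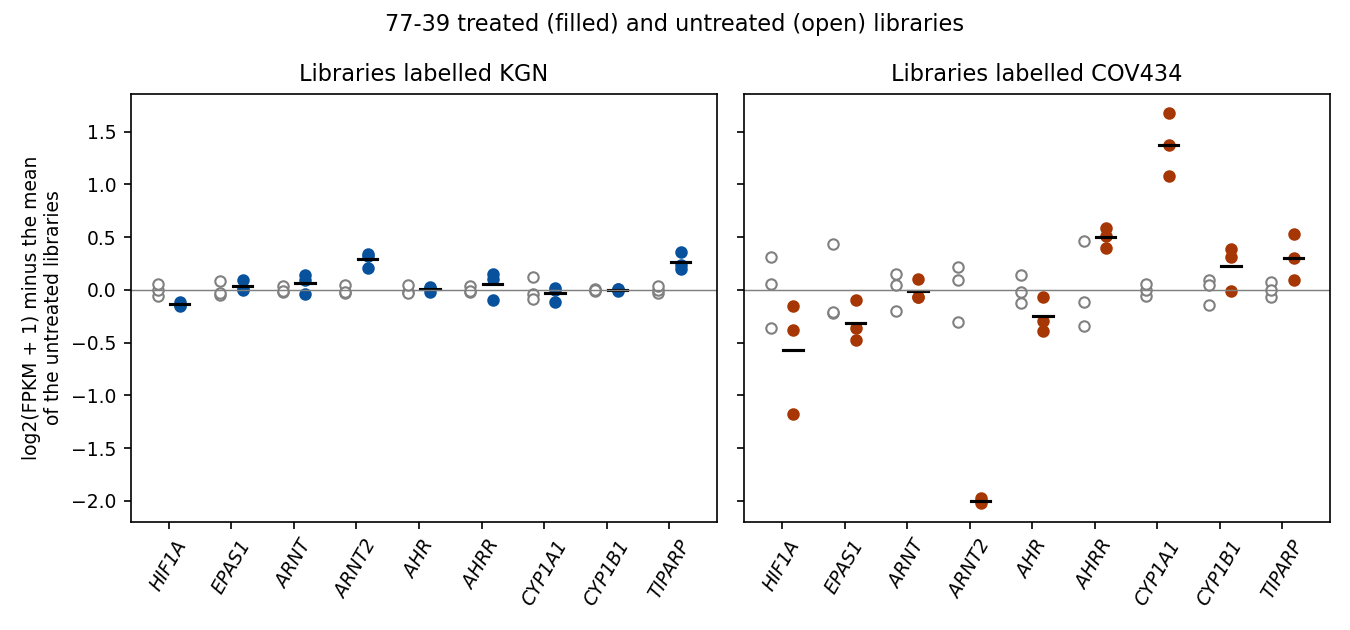
Log2(FPKM + 1) of each library minus the mean of the untreated libraries of its line (y axis) for the 9 genes (x axis), with untreated libraries open, treated ones filled and a bar at the treated mean. In KGN (left) the bars lie between −0.14 and 0.29, and in COV434 (right) ARNT2 lies at −2.00 and CYP1A1 at 1.38 while HIF1A spreads widely.

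The wider pathway was described by 5 lists with 66 genes outside the 9, for which both lines could be tested. Most HIF targets tested had lower means with 77-39 in both lines, and the smallest p-values among those that fell in KGN belonged to the mitophagy receptors BNIP3L and BNIP3 and to LDHA, the enzyme that makes lactate. AHR targets other than the 9 were higher in COV434 for 3 of 4 genes tested but passed no adjusted test in the fit of COV434 alone. The other lists held the chaperones of AHR, the oxygen-sensing genes and other factors of the bHLH-PAS family, to which HIF-α, ARNT and AHR belong. Lists were counted, and no test was made of a list as a whole.

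Of 25 HIF targets, 17 were tested in KGN, where 12 fell, none rose and the median log2 fold change was −0.56, beside 0.0108 over all genes and 16.4% of all genes called down. BNIP3L went from 14.995 ± 1.35 to 6.89 ± 0.303 FPKM (log2 fold change −1.02, adjusted p = 0.000281, limma), LDHA from 76.3 ± 7.63 to 38.4 ± 1.21 FPKM (−0.97, adjusted p = 0.000404) and BNIP3 from 19.1 ± 1.99 to 9.15 ± 0.418 FPKM (−0.98, adjusted p = 0.000407). SLC2A3, a glucose transporter, and P4HA2, a collagen hydroxylase, had positive log2 fold changes of 0.14 and 0.17 (adjusted p = 0.0667 and 0.0697) and were named after their values were seen. In COV434, 23 HIF targets were tested, with a median of −0.55 beside −0.0175 over all genes. At an unadjusted p under 0.05, 14 were lower, where 4.49% of all genes were called down.

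No HIF target other than CA9, the membrane carbonic anhydrase, passed the adjusted test in COV434, where 0.0415% of all genes did. CA9 passed the filter on low values only through the untreated libraries, so that its difference is given without a test. It went from 23.7, 30.4 and 42.6 FPKM to 0.0800, 0.0729 and 0.536 FPKM, a log2(FPKM + 1) difference of −4.74. An opposite-strand gene, ARHGEF39, shares 38.5% of the exonic bases of CA9. With the library number as a block, which pairs the COV434 libraries, 7 HIF targets, CA9 among them, and EGLN3 had an adjusted p under 0.05. That fit also called more of all 12060 genes tested, 39 up and 48 down.

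The oxygen-sensing genes include the hydroxylases that mark HIF-α for destruction, some of which are themselves HIF targets. In KGN, 1 of 12 tested rose and 2 fell, a smaller share than the 34.0% of all genes called, with a median log2 fold change of −0.08. VHL, the subunit that recognizes hydroxylated HIF-α, rose from 47.9 ± 1.25 to 71.8 ± 1.72 FPKM (0.58, adjusted p = 0.000355, limma). EGLN1, the main prolyl hydroxylase of HIF-α, fell from 9.74 ± 0.421 to 7.23 ± 0.342 FPKM (−0.38, adjusted p = 0.00256), as did CITED2, which competes with HIF-α for its coactivators, from 13.0 ± 0.626 to 9.60 ± 1.01 FPKM (−0.40, adjusted p = 0.00848). With all 12 libraries in 1 fit, VHL and EGLN1 were no longer called (adjusted p = 0.0546 and 0.0879). In COV434, VHL was at 24.7 ± 6.63 and 26.7 ± 4.43 FPKM with overlap, and none of 12 genes passed the adjusted test.

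At an unadjusted p under 0.05, 3 of 12 oxygen-sensing genes tested were lower and none was higher in COV434. Over all 12060 genes tested, 4.49% were lower and 3.52% were higher at that threshold. EGLN3, the hydroxylase most responsive to hypoxia, was at 6.22, 4.52 and 6.002 FPKM without and 1.90, 1.32 and 2.17 FPKM with 77-39 (log2 fold change −1.24, adjusted p = 0.0769, and 0.0329 with the library number as a block). CITED2 had a log2 fold change of −0.60 (adjusted p = 0.249, limma), and EGLN1 was at 21.6 ± 4.22 and 13.2 ± 1.40 FPKM, without overlap. EGLN1 was named for COV434 after its values were seen.

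The AHR target list held 8 genes besides the members, of which CYP1A2, UGT1A6, GSTA1 and GSTA2 were at or near 0 in all 4 groups. Of the 4 tested in COV434, 3 had all treated libraries above all untreated ones, where 14.4% of all genes tested did not overlap. The median log2 fold change was 0.54, beside −0.0175 over all genes. The same 3 genes had an unadjusted p under 0.05, as had 3.52% of all genes in the upward direction. ALDH3A1, an aldehyde dehydrogenase, was at 3.93, 3.47 and 3.45 FPKM without and 8.39, 6.64 and 6.48 FPKM with 77-39 (log2 fold change 0.82, unadjusted p = 0.000561, adjusted p = 0.117, limma). NQO1, a quinone reductase that both AHR and NRF2 control, was at 140, 186 and 166 FPKM without and 254, 275 and 266 FPKM with 77-39 (0.70, unadjusted p = 0.00329, adjusted p = 0.237), and an opposite-strand gene shares 17.7% of its exonic bases. Neither passed the adjusted test in the fit of COV434 alone, nor with the library number as a block (adjusted p = 0.0591 and 0.0527, limma). Both did with all 12 libraries in 1 fit (adjusted p = 0.00131 and 0.00602), which called 3 of the list up, CYP2S1 included. That fit does not pair the libraries, and called 223 of all 13127 genes up.

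CYP2S1 and NFE2L2 complete the 4 genes, and were named after their values were seen. CYP2S1, another cytochrome P450, went from 8.07 ± 1.06 to 10.8 ± 0.831 FPKM without overlap (log2 fold change 0.39, adjusted p = 0.522, limma). NFE2L2, which encodes NRF2, went from 27.5 ± 8.05 to 17.3 ± 1.95 FPKM with overlap (−0.60, unadjusted p = 0.0305, adjusted p = 0.523), and a same-strand gene, AC019080.1, shares 17.6% of its exonic bases. In KGN, where AHR RNA was nearly undetected, 2 of the 8 genes were tested and neither passed. NQO1 was at 7.28 ± 0.552 FPKM without and 6.86 ± 0.528 FPKM with 77-39 there (−0.07, adjusted p = 0.451), and NFE2L2 had a log2 fold change of 0.08 (adjusted p = 0.294).

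**Figure D4:**
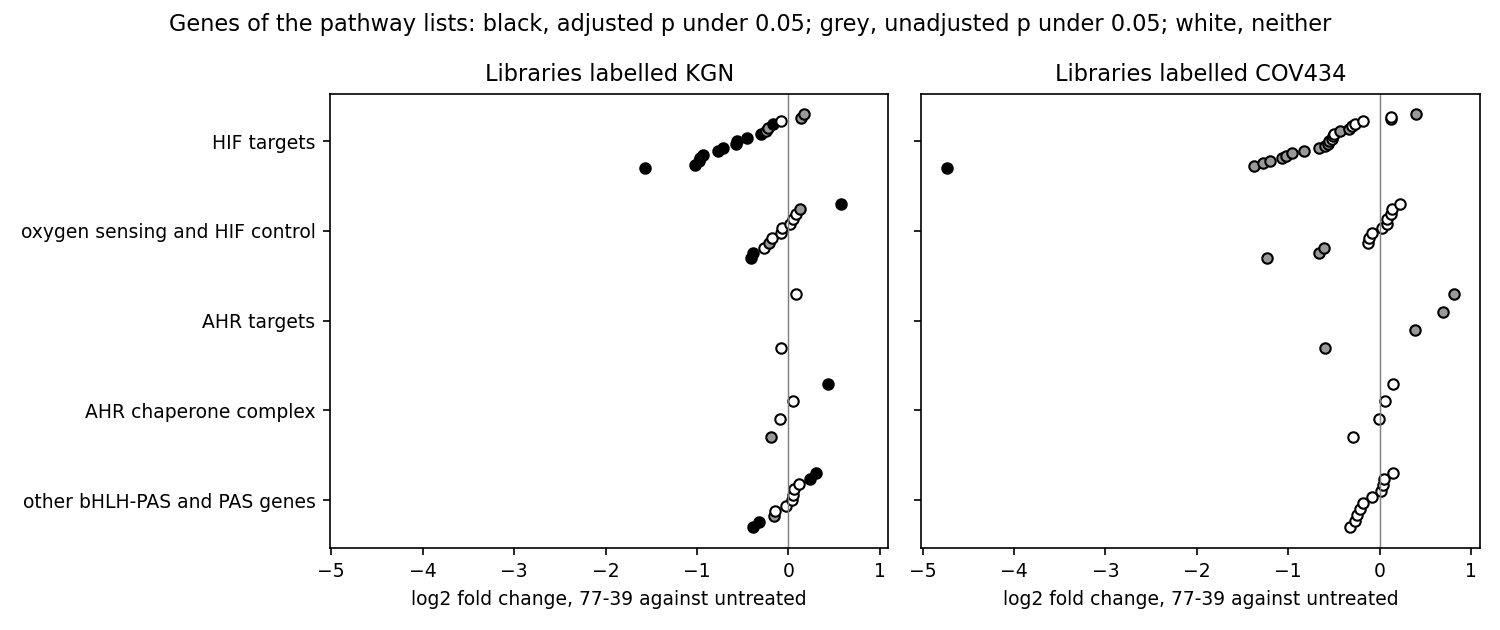
Log2 fold change on log2(FPKM + 1) with 77-39 (x axis) of each tested gene (points) of the 5 pathway lists (y axis), in KGN (left) and COV434 (right), where black marks an adjusted p under 0.05, grey an unadjusted p under 0.05 and white neither. HIF targets lie mostly below 0 in both panels, with 12 of 17 black in KGN and CA9 alone black in COV434, and 3 of 4 AHR targets lie above 0 in COV434. CA9 passed the filter on low values only through the untreated libraries, so that its black mark is not read as a call.

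The chaperones that hold AHR were all well expressed. HSP90AA1, an HSP90 isoform, rose in KGN from 144 ± 3.12 to 195 ± 5.17 FPKM (log2 fold change 0.43, adjusted p = 0.00112, limma), and was the only one of 4 that passed there, but not with all 12 libraries in 1 fit (adjusted p = 0.173). In COV434 none of the 4 passed, with PTGES3, the p23 cochaperone, at a log2 fold change of 0.15 (adjusted p = 0.935). Of 15 other bHLH-PAS and PAS genes, 11 were tested in KGN, where 2 rose and 2 fell, a share close to the 34.0% of all genes called there.

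CLOCK rose with a log2 fold change of 0.31 (adjusted p = 0.0149, limma) and ARNTL2, a partner of CLOCK, with 0.24 (adjusted p = 0.023). PER1 and PER2, which repress the clock factors, fell by 0.32 (adjusted p = 0.0121) and 0.39 (adjusted p = 0.016) on the log2 scale. None of these 4 was called with all 12 libraries in 1 fit. The call of CLOCK was also lost without KGN 77-39 library 1 or 2 (adjusted p = 0.0509 and 0.0565), that of ARNTL2 without either of these or KGN untreated library 1 (0.0732, 0.083 and 0.0506), and that of PER2 without KGN untreated library 3 (0.0635). In COV434 none of 10 tested genes of this list passed, with NCOA3, a coactivator (−0.33, adjusted p = 0.773), and ARNTL, the main partner of CLOCK (−0.25, adjusted p = 0.785), at the smallest p-values.

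Profiles over the 12 libraries were compared between ARNT2 or CYP1A1 and the other genes, by the root mean square (RMS) difference of log2(FPKM + 1) after each gene was centered on its own mean, among 15158 genes. The 3 nearest to ARNT2 were MIR5188 (RMS 0.353), UBA52P6 (0.376) and SLC6A8, the creatine transporter (0.457). MIR5188 and UBA52P6 had at most 5 and 14 reads in a library, and SLC6A8 had mean FPKM of 22.0 and 22.8 in untreated and treated KGN and 43.8 and 22.3 in untreated and treated COV434. Nearest to CYP1A1 were PHGDH, the first enzyme of serine synthesis (0.183), CCDC3 (0.232, with 4 to 95 reads) and PCK2, the mitochondrial phosphoenolpyruvate carboxykinase (0.276). PHGDH had mean FPKM of 39.9 and 36.8 in KGN and 36.6 and 79.4 in COV434, and PCK2 of 19.5 and 24.1 in KGN and 26.7 and 47.6 in COV434. Both had a higher mean in treated COV434 than in the other 3 groups, as CYP1A1 had. The likeness is a description of 12 libraries in 4 groups and carries no test.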

How the data were processed

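RNA of KGN and COV434 cells, by label, was sequenced in 12 libraries. The authors deposited FPKM for 58735 genes, together with each gene's length and human coordinates, 58724 of which are those of GENCODE 29. The submitters' processing notes list HISAT2 2.0.5 and mouse genome builds, although the gene IDs are human, and the counter is not given in the sources used here. Multiplied by gene length, 100% of the deposited FPKM values came out as whole reads (tolerance 0.05), which were used for depth and for voom. No pair of libraries was identical.

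Untreated and treated libraries of each label, and the untreated libraries of both labels, which are the controls of the treated ones too, were compared by limma 3.58.1 in R 4.3.3 (lmFit, eBayes with trend) on log2(FPKM + 1). Genes whose mean was under 1 FPKM were left out. Fold changes on this scale understate changes of low genes. All p-values are two-sided, and were adjusted by Benjamini-Hochberg across every gene tested. The 9 genes, the lists and the alternatives were chosen with earlier results of these data known. Of each list the text names, per line, up to 3 genes in each direction that had an adjusted p under 0.05 (lowest p first), or, where there were none, the 2 genes with the smallest p, and for ARNT2 and CYP1A1 the 3 nearest profiles. The settings varied were the pseudocount (0.1), the filter (0.1 FPKM, or none), the scaling (median ratio), the model (all 12 libraries together, or a block for the library number) and the measure (voom), and libraries were also left out singly. The values of 2 list genes are not reported here. The scripts were tested on simulated data. Deviations of same-numbered libraries from their group means correlated at 0.40, 0.474 and 0.166 across genes in COV434, so that the numbers pair these libraries, and at −0.016, −0.018 and −0.019 in KGN, where they do not. Figures were drawn in Python 3.11.15 with matplotlib 3.10.9. Limits given as 3 reads cover counting error only.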

Additional observations from a re-analysis of the deposited data

Results flagged for a closer look

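ARNT2 moved in opposite directions in the 2 lines. Every 77-39 treated library labelled KGN lay above the untreated ones, and every treated library labelled COV434 lay below. The log2(FPKM + 1) difference in KGN exceeded that in COV434 by 2.29, from 0.29 against −2.00. The difference was not tested, because the COV434 values had chosen the gene.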

How the results depend on the processing

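Of the 9 genes in KGN, 4 were tested in the reported fit and 1 rose, beside 2230 of all 12671 genes. With all 12 libraries in 1 fit 0 of 8 tested rose (446 of all 13127 genes), and with voom 2 of 4 (2658 of all 12671). When single libraries were left out 0 to 1 rose (1380 to 2058 of all genes). None fell in the reported fit (2077 of all genes), against 1 under median-ratio scaling (2344 of all genes) and 0 to 1 when single libraries were left out (1371 to 2070 of all genes). Of 46 pathway genes tested in KGN, 4 rose, a smaller share than the 17.6% of all genes. With all 12 libraries 0 of 57 rose, and without a filter on low values 2 of 62 (1540 of all 32824 genes). Without single libraries 2 to 4 rose, the lowest number without KGN 77-39 replicate 2. There were 16 that fell (2077 of all 12671 genes), against 10 with all 12 libraries (569 of all 13127 genes). In COV434 none of 53 tested pathway genes rose by adjusted p, beside 1 of all 12060 genes. By adjusted p 1 fell, CA9, beside 4 of all genes. CA9 passed the filter only through the untreated libraries, so that its fall is not read as a call. At an unadjusted p 4 were higher, beside 424 of all genes. With all 12 libraries in 1 fit 4 rose and 13 fell (223 and 257 of all 13127 genes), and voom called 5 lower (13 of all 12060 genes). With the library number as a block, which pairs the COV434 libraries, 8 fell (48 of all 12060 genes). The number higher at an unadjusted p was 2 to 4 without single libraries (285 to 562 of all genes). It was lowest without COV434 77-39 replicate 3 or COV434 untreated replicates 2 or 3. The ARNT difference between untreated lines of −0.05 reversed to 0.0481 without COV434 untreated replicate 2, and was −0.1244 without COV434 untreated replicate 1. Its lowest value was −0.2597, with voom. Voom moved the median of all genes in that comparison from 0.0245 to −0.1775, and with a pseudocount of 0.1 the COV434 differences of ARNT2 and CYP1A1 were −2.77 and 2.15. By construction, a smaller pseudocount enlarges the log2 differences of low genes. The read number by which the FPKM were scaled exceeded the reads on genes in untreated KGN (18540179 against 16803402 in library 1). It was below them in untreated COV434 (16572405 against 17701495 in library 1), while voom used the reads on genes. The part of this in the voom shift was not tested. In KGN the block ended the calls of ARNTL2 and PER2 (adjusted p = 0.0584 and 0.0552), although the numbers do not pair those libraries, and it ended none of the other calls named in the text. Of the single values, 455 were counted as unchanged, 21 lost and 9 gained a call, 2 moved and 1 reversed. Unchanged means the same direction and side of the threshold for a tested value. For the COV434 values of the 9 genes, which had no test, it means a change within the spread between libraries. A COV434 value near 0 could thus change sign and still count as unchanged. Of the counts, 87 stayed within 1.5 times and 17 moved further. Few reads limit EPAS1, AHR, AHRR and CYP1B1 in KGN.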
